A study of Mus musculus with 3 samples.

Results

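The nuclear oxidative phosphorylation genes encode the subunits of respiratory complexes I to V that are made in the cytosol and imported into mitochondria. They were followed in RNA-seq of mouse epididymis after castration, with and without testosterone. Members were chosen by gene symbol alone, as the Nduf, Sdh, Uqcr, Cox4 to Cox8 and Atp5 names without pseudogene suffixes. This gave 79 of the 23538 listed genes: 37 of complex I, 4 of complex II, 8 of complex III, 14 of complex IV and 16 of complex V.

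The study used 13 adult male mice of the outbred ICR strain, with 1 sequenced epididymis library for each of 3 groups. The Cas+T group had both testes removed with the epididymides left in place and, from 14 days after surgery, received 5 mg/kg testosterone propionate in corn oil under the skin on 10 consecutive days (5 mice). The Cas+CO group was castrated in the same way and received corn oil (5 mice). The Sham group had the operation without removal of the testes, and no injection is recorded for it (3 mice). All mice kept their epididymides, so sham-operated tissue also received the fluid and sperm of a testis while castrated tissue did not. The labels do not say whether a library pooled the mice of its group. With 1 library per group there is no replicate, no standard deviation and no test, and every ratio given here sets 1 library against 1 other. Values are TPM, a level per length of transcript that sums to the same total in every library. Log2 ratios are differences of log2(TPM + 1), which understate the change of genes near 1 TPM. Depth is unknown, since TPM keeps no read number, so no counting error can be given.

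Oxidative phosphorylation passes electrons from NADH through complex I, and from succinate through complex II, to ubiquinone, then through complex III and cytochrome c to complex IV, which reduces oxygen. Complexes I, III and IV pump protons across the inner mitochondrial membrane, and complex V, the ATP synthase, uses the gradient to make ATP. All of these complexes but complex II also hold subunits encoded by mitochondrial DNA. In the epididymis, energy is spent by epithelial cells on secretion, absorption and acidification of the lumen.

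The 3 libraries differed in their tissue markers. The 5 markers of the epididymal epithelium (Crisp1, Gpx5, Adam7, Lcn5 and Cd52) summed to 67585 TPM in Cas+T, 7224 TPM in Cas+CO and 89977 TPM in Sham, so the labelled tissue was recognisable in each, and none of the 5 was at 0. The 12 adipocyte markers summed to 406, 2663 and 252 TPM in the same order of libraries, the 9 macrophage markers to 145, 876 and 101 TPM, the 7 fibroblast markers to 148, 1398 and 138 TPM, and the 5 red blood cell markers to 45.2, 2731 and 82.9 TPM. The 6 markers of clear cells, the mitochondria-rich epithelial cells that acidify the lumen, summed to 206 TPM in Cas+T, 392 TPM in Cas+CO and 127 TPM in Sham. The 9 smooth muscle markers summed to 288 TPM in Cas+T, 568 TPM in Cas+CO and 931 TPM in Sham. Of the 9, 6 were higher in Cas+CO than in Sham (median log2 ratio 0.26), beside 81.7% of all genes. At least 2-fold, 1 was higher and 1 lower, beside 37.5% and 6.49% of all genes. Below the median of all genes, given below, lay 8 of the 9. Markers at least 2-fold higher in Cas+CO over Sham were 5 of 6 clear cell, 11 of 12 adipocyte and 9 of 9 macrophage markers. So were 6 of 7 fibroblast and 5 of 5 red blood cell markers, beside 37.5% of all genes. Against the median of all genes, given below, the counts were 4, 10, 4, 5 and 4 in the same order, beside 11.1% of all genes. The part of these cell types in the results below was not tested. In such bulk tissue, fewer cells of a type and less RNA per cell cannot be told apart. Over all genes compared, those at 1 TPM or more in at least 1 of the 2 libraries, the median of the log2 ratios was 0.76 for Cas+CO over Sham, -0.46 for Cas+T over Cas+CO and 0.30 for Cas+T over Sham. Over the 2532 genes with a mean of at least 50 TPM the medians were 0.36, -0.14 and 0.24. Member ratios are therefore given as deposited and against these medians.

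The start regions of 5 members are shown, picked by their levels: complex II, whose 4 genes shared 1 order of libraries, and Ndufa1 and Cox7b, which stood apart from their complexes. Sdhc, also of complex II, had no window. Each window runs from 250 bases before the gene start to 50 after it, in the RefSeq promoter table of GRCm38.p6. Some of these starts differ from those of the gene annotation used for the coordinates given elsewhere, and the Ndufa1 window lies wholly upstream of the start that annotation gives. They lie at chr13:74350191-74350490 (minus strand, Sdha), chr4:140961021-140961320 (plus, Sdhb), chr9:50603800-50604099 (minus, Sdhd), chrX:37191189-37191488 (minus, Ndufa1) and chrX:106015450-106015749 (plus, Cox7b). Capitals mark letters that match the motif of NRF1, GCGC then any base then TGCGC, or of ETS factors, CCGGAAG, on either strand. NRF1 and the ETS factor GABP are known activators of respiratory chain genes.
Sdha: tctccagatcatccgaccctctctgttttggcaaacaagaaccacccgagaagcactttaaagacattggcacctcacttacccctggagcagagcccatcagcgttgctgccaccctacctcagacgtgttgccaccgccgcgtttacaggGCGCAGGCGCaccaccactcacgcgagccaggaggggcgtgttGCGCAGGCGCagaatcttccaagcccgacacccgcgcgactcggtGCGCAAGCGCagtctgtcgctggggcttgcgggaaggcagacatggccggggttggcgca
Sdhb: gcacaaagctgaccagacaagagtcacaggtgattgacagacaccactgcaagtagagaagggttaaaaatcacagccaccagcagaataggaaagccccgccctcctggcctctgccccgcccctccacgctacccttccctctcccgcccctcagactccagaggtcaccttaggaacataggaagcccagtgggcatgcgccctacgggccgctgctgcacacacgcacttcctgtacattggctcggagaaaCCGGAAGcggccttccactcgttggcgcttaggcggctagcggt
Sdhd: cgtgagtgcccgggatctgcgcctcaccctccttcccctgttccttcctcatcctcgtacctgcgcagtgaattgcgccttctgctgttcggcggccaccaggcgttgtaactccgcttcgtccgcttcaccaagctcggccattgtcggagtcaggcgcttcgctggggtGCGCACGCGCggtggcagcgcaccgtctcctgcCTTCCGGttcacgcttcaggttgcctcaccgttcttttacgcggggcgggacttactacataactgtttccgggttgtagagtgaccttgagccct
Ndufa1: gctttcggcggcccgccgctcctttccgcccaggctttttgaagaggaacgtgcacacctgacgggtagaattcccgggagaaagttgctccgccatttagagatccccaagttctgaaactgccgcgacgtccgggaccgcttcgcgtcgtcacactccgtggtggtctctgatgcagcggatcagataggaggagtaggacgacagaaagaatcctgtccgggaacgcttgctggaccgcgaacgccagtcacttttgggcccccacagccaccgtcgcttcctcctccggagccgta
Cox7b: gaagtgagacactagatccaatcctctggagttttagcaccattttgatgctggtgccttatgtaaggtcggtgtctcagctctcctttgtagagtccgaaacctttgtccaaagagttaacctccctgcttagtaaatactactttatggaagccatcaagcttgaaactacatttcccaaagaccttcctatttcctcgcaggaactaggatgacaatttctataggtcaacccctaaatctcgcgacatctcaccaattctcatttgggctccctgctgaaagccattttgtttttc
The Sdha window held 3 NRF1 matches, the Sdhd window 1 NRF1 and 1 ETS match, and the Sdhb window 1 ETS match. The Ndufa1 and Cox7b windows held neither. Members not shown were mixed. Of those highest in Cas+CO, Atp5h held 1 NRF1 and 1 ETS match, and Atp5b and Cox8b neither. Of those lowest there, Cox6a1 held 2 NRF1 and 1 ETS match, and Cox7c neither. Whether the letters run with the ratios was not tested. Of the 68 members with a window, 25% held the NRF1 letters, against 4.6% of all 32851 promoters in the table. The ETS letters stood in 23.5% of members and 8.86% of all promoters, and those of YY1, AAGATGG, in 16.2% and 6.34%. The NRF1 and ETS matches did not overlap in the windows shown. By complex, the NRF1 letters stood in 7 of 32 members of complex I, 2 of 3 of complex II, 1 of 5 of complex III, 1 of 13 of complex IV and 6 of 15 of complex V. A match describes these letters and is not evidence of a bound site.

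The members together summed to 13411 TPM in Cas+T, 12432 TPM in Cas+CO and 12026 TPM in Sham, which was 1.34%, 1.24% and 1.2% of all TPM. Complex II, the smallest, was highest in Cas+CO, with 401 TPM in Cas+T, 517 TPM in Cas+CO and 347 TPM in Sham. Complex I was lowest there, with 4197 TPM in Cas+T, 3649 TPM in Cas+CO and 3988 TPM in Sham. Complex III summed to 1595, 1308 and 1341 TPM in the same order, complex IV to 3222, 2839 and 2830 TPM, and complex V to 3996, 4120 and 3520 TPM. Some of these orders turn with the scaling. With the 50 most abundant genes of each library left out of the total, complex V summed to 3967, 3716 and 3982 TPM in the same order. Complex IV then summed to 3198, 2560 and 3201 TPM and all members to 13313, 11213 and 13606 TPM, each lowest in Cas+CO. Of 78 members at 1 TPM or more in some library, 33 (42.3%) were lowest in Cas+CO and 29 (37.2%) were highest there. Over all 16426 such genes, 15.5% were lowest and 72.0% were highest in Cas+CO, and over genes with a mean of at least 50 TPM the shares were 27.8% and 58.5%.

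**Figure D1:**
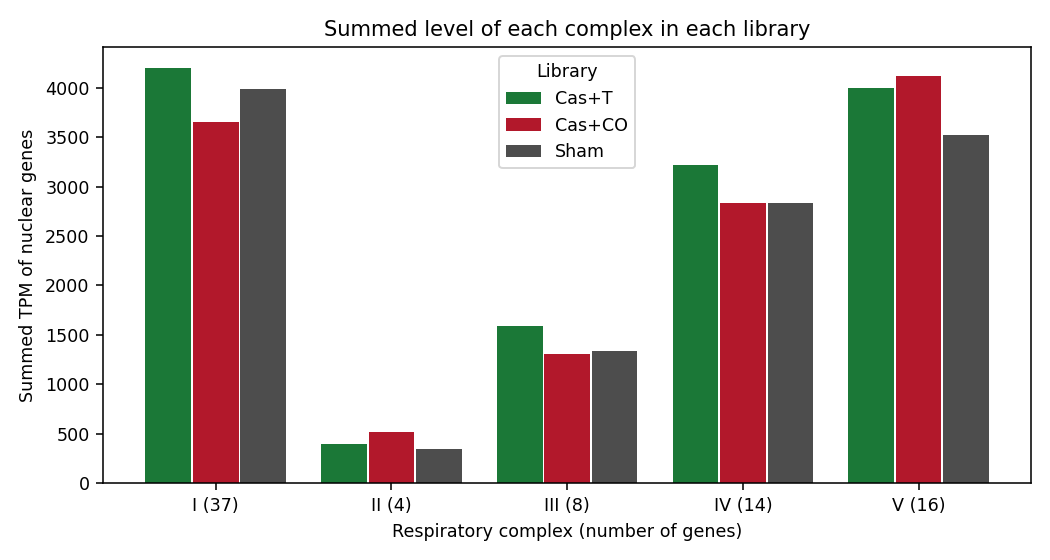
Summed TPM of the members of each respiratory complex (bars, axis from 0) in the Cas+T, Cas+CO and Sham libraries, 1 library per group, with the number of genes in parentheses. As deposited, the Cas+CO bar is the tallest for complexes II and V and the shortest for complexes I and III.

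Castration without testosterone was read from Cas+CO over Sham. These libraries differ in testicular androgen, in testicular fluid and sperm, and in recorded corn oil injection, which cannot be told apart here. Of 77 members compared, 2 were at least 2-fold higher, Cox8b and Cox6b2, where 37.5% of all 16170 genes were. Cox8b was at 0 in Sham, so its ratio is set by the 1 TPM added to both values. A single member, the complex I gene Ndufa1, was at least 2-fold lower, where 6.49% of all genes were. Among genes with a mean of at least 50 TPM these shares were 17.7% higher and 10.4% lower. The members had a median log2 ratio of 0.06, which lay 0.70 below the median of all genes. Set against the median of all genes, 1 member was at least 2-fold higher and 15 were at least 2-fold lower, beside 11.1% and 13.4% of all genes. In all, 74 of 77 members lay below the median of all genes, as did 73.5% of the genes with a mean of at least 50 TPM, and 63 of 77 lay below the median of those abundant genes. By complex the medians were -0.02 for I, 0.63 for II, 0.06 for III, -0.10 for IV and 0.19 for V as deposited, and -0.79, -0.13, -0.70, -0.86 and -0.57 against the median of all genes.

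Testosterone after castration was read from Cas+T over Cas+CO. Here 2 of 78 members were at least 2-fold higher, Ndufa1 and Cox7b, beside 6.9% of all 16152 genes. The 2 members at least 2-fold lower were Cox8b, at 0 in Cas+T, and Cox6b2, beside 23.4% of all genes. Among genes with a mean of at least 50 TPM these shares were 11.6% higher and 7.67% lower. The median log2 ratio of members was 0.12, or 0.58 above the median of all genes, and 60 of 78 members lay above the median of genes with a mean of at least 50 TPM. Against the median of all genes, 7 members were at least 2-fold higher and 1 lower, beside 11.4% and 11.8% of all genes. By complex the medians were 0.16 for I, -0.44 for II, 0.29 for III, 0.18 for IV and -0.02 for V as deposited, and 0.62, 0.02, 0.75, 0.64 and 0.44 against the median of all genes.

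Restoration was read from Cas+T over Sham, where 75 of 77 members lay within 1.5-fold, as did 73.4% of all genes and 83% of those with a mean of at least 50 TPM. Only Cox7b was at least 2-fold higher and no member was at least 2-fold lower, beside 5.18% and 2.76% of all 14620 genes. Of genes with a mean of at least 50 TPM, 2.89% were higher and 1.98% lower. The members' median was 0.15, or 0.15 below that of all genes. With that median set to 0, the counts were again 1 and 0, beside 2.04% and 4.41% of all genes. Below the median of all genes lay 68 of 77 members, as did 1467 of 2529 genes with a mean of at least 50 TPM. Below the median of those abundant genes lay 65 of 77. Within 1.5-fold in Cas+CO over Sham were 67 of 77 members already, so the count of 75 describes a small move. Each library enters 2 of these 3 comparisons, so opposite signs in the first and second are not separate evidence.

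**Figure D2:**
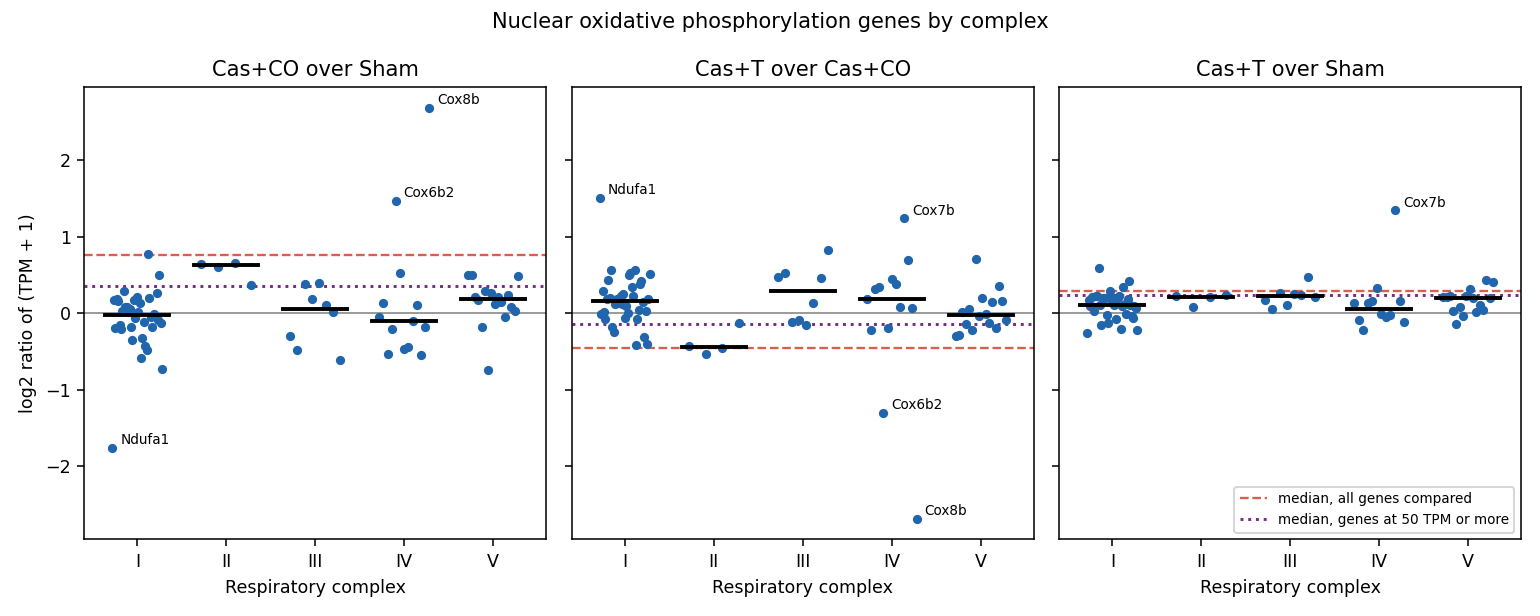
Log2 ratio of (TPM + 1) for each member (points) by respiratory complex, with the median of each complex (black bars), in the 3 comparisons of 1 library with 1 other. Dashed and dotted lines are the medians of all genes compared and of genes with a mean of at least 50 TPM. Most points of the first panel lie below both lines, the 4 points of complex II lie between them, and Ndufa1, Cox7b, Cox8b and Cox6b2 stand apart.

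Complex I takes electrons from NADH in a peripheral arm that reaches into the matrix and pumps protons in a membrane arm. The 19 members of the membrane arm had a median log2 ratio of -0.12 in Cas+CO over Sham, all 19 lay below the median of genes with a mean of at least 50 TPM, and 12 of the 19 were lowest in Cas+CO. The 16 members of the peripheral arm had a median of 0.07, 14 of the 16 lay below that same median, and 7 were lowest in Cas+CO. Of all genes, 15.5% were lowest there, and of those with a mean of at least 50 TPM 27.8%. Peripheral-arm mRNAs tend to be longer. Other abundant genes had a median of 0.01 in the class from 500 bases and 0.22 in that from 1000 bases. The part of length in the difference between the arms was not tested. For Cas+T over Cas+CO the medians were 0.23 for the membrane arm, with 19 of 19 above the median of abundant genes, and 0.03 for the peripheral arm, with 11 of 16 above it. They were 0.15 and 0.10 for Cas+T over Sham. Relative to the median of all genes, both arms were below 0 in Cas+CO over Sham, at -0.88 and -0.69, so the sign of the peripheral arm's median turns with the scaling.

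Ndufa1, on the X chromosome, encodes a small membrane-arm subunit required for assembly of complex I. It stood at 227 TPM in Cas+T, 79.0 TPM in Cas+CO and 271 TPM in Sham. The Cas+CO library was thus low and the other 2 libraries were close to each other. Against Sham, the Cas+CO level fell 3.40-fold (log2 ratio -1.77), and against Cas+CO the Cas+T level rose 2.85-fold (1.51), while the log2 ratio of Cas+T over Sham was -0.26. The gene lies at chrX:37187588-37191163 on the minus strand of GRCm38, and no near-identical transcript of another gene and no overlapping gene was found in the annotation. It stayed past the 2-fold limit in both comparisons under each scaling tried.

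Other accessory subunits of complex I were also lowest in Cas+CO, with smaller ratios. Ndufb7, of the far end of the membrane arm, stood at 101 TPM in Cas+T, 71.2 TPM in Cas+CO and 107 TPM in Sham. Ndufb8, the most abundant member of the complex and also of the membrane arm, stood at 346 TPM in Cas+T, 239.5 TPM in Cas+CO and 300.1 TPM in Sham. Ndufv3, an accessory subunit beside the NADH-binding site, stood at 115 TPM in Cas+T, 80.2 TPM in Cas+CO and 133 TPM in Sham. Cas+CO was lower than Sham in all 3, by 1.49-fold, 1.25-fold and 1.66-fold, short of the 2-fold limit. Ndufc1, a membrane-arm subunit, was at 103 TPM in Cas+T, 88.3 TPM in Cas+CO and 119 TPM in Sham. Ndufs5, which faces the intermembrane space, was higher in Cas+T alone, with 156 TPM against 115 TPM in Cas+CO and 116 TPM in Sham. Ndufa6, an accessory subunit of the peripheral arm, was lowest in Cas+T instead, with 252 TPM against 298 TPM in Cas+CO and 281 TPM in Sham.

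Core subunits of the peripheral arm, which carries electrons to ubiquinone, differed among themselves: Ndufs3, Ndufs8 and Ndufv2 were lowest in Cas+CO, by at most 1.09-fold against Sham, and Ndufs1, Ndufv1 and Ndufs7 were highest there. Ndufs1, which holds iron-sulfur clusters, was highest in Cas+CO, with 36.9 TPM in Cas+T, 49.7 TPM in Cas+CO and 28.7 TPM in Sham. Ndufv1, which binds NADH and flavin, was also highest there, with 80.9 TPM in Cas+T, 107 TPM in Cas+CO and 75.6 TPM in Sham. Their log2 ratios for Cas+CO over Sham, 0.77 and 0.50, were the only 2 of complex I above the median of abundant genes, and that of Ndufs1 just passed the median of all genes. Ndufs7, an iron-sulfur subunit near the quinone site, stood at 53.0, 65.9 and 54.5 TPM in Cas+T, Cas+CO and Sham. Ndufs3, Ndufs8 and Ndufv2 had log2 ratios between -0.12 and -0.05 in Cas+CO over Sham.

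The symbol rule also took in Ndufa4 and Ndufa4l2. Ndufa4, named for complex I but now placed with complex IV, was at 280.1 TPM in Cas+T, 244 TPM in Cas+CO and 239 TPM in Sham. Its paralogue Ndufa4l2, known as a target of low oxygen signalling, was near the floor, at 1.33, 0.57 and 0.55 TPM in the same order, and held no more than 0.47% of the pair's TPM in any library.

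Complex II, succinate dehydrogenase, belongs both to the respiratory chain and to the tricarboxylic acid cycle, and all of its subunits are nuclear. All 4 of its genes were highest in Cas+CO, the only complex of which that held. Sdha, the flavin-bearing catalytic subunit, was at 203 TPM in Cas+T, 273 TPM in Cas+CO and 174 TPM in Sham. Sdhb, the iron-sulfur subunit, was at 48.2, 70.2 and 45.6 TPM in the same order. Of the membrane anchors, Sdhc was at 34.7 TPM in Cas+T, 47.7 TPM in Cas+CO and 29.9 TPM in Sham, and Sdhd at 116, 126 and 97.6 TPM. Their log2 ratios for Cas+CO over Sham were 0.65, 0.61, 0.66 and 0.37, none of which reached 2-fold, and their median of 0.63 was 0.27 above the median of abundant genes but 0.13 below that of all genes. For Cas+T over Cas+CO the median was -0.44, within 0.02 of the median of all genes, and for Cas+T over Sham it was 0.21. The direction of complex II in Cas+CO therefore turns with the scaling. Sdha and Sdhc, at 2900 and 3171 bases, are also among the longest mRNAs of the members, and against abundant genes of the same length class the median of complex II was 0.11 for Cas+CO over Sham, while Cas+T over Cas+CO gave -0.22.

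**Figure D3:**
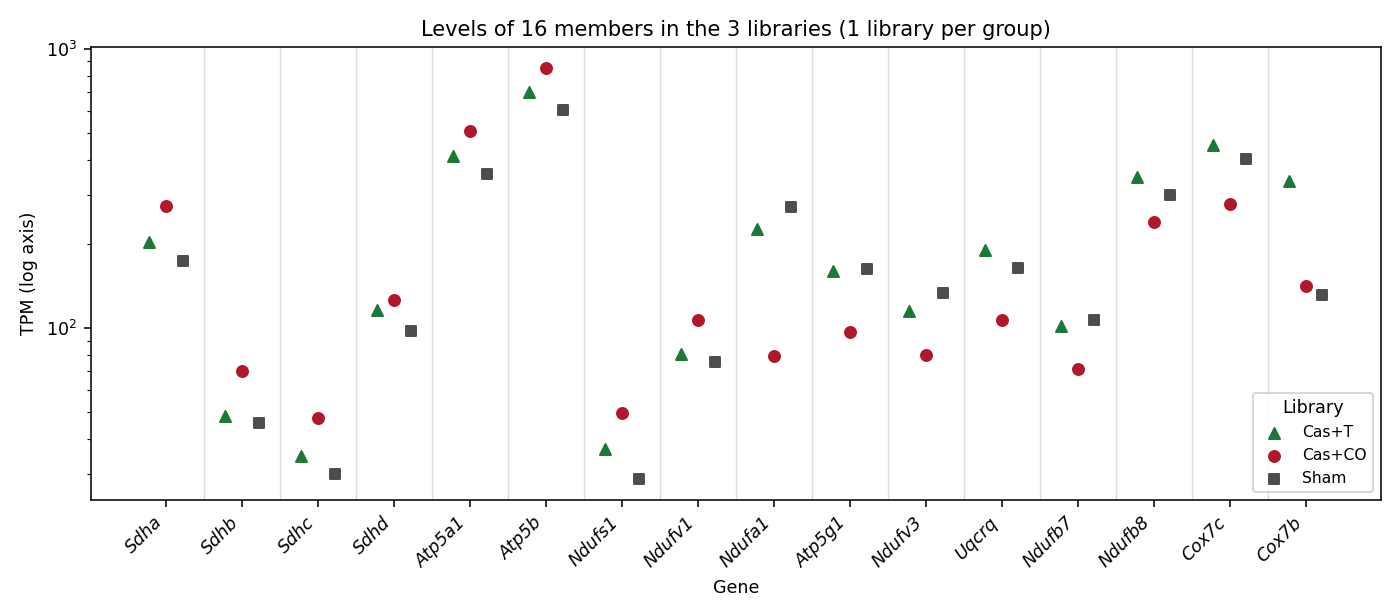
Levels in TPM (log axis) of 16 members in the Cas+T (triangles), Cas+CO (circles) and Sham (squares) libraries, 1 library per group. The circles are uppermost for the 4 Sdh genes, Atp5a1, Atp5b, Ndufs1 and Ndufv1 and lowest for Ndufa1, Atp5g1, Ndufv3, Uqcrq, Ndufb7, Ndufb8 and Cox7c, while for Cox7b the Cas+T triangle is high alone.

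The 8 genes of complex III, the cytochrome bc1 complex, had log2 ratios between -0.62 and 0.40 in Cas+CO over Sham. The core proteins Uqcrc1 and Uqcrc2 and the Rieske iron-sulfur protein Uqcrfs1 had a median of 0.19 there, with values of 0.19, 0.40 and 0.10. The 5 small subunits had a median of -0.30, and 3 of them were lowest in Cas+CO, but Uqcrb, at 0.38, was above Uqcrc1 and Uqcrfs1, so these groups of subunits overlapped. Uqcrq, which lies near the cytochrome b subunit, was at 190.4 TPM in Cas+T, 106 TPM in Cas+CO and 164 TPM in Sham. Cas+CO was thus 1.53-fold lower than Sham, and Cas+T 1.78-fold higher than Cas+CO. Uqcrh, the hinge protein and the most abundant member of the complex, was instead high in Cas+T alone, with 388 TPM against 283 TPM in Cas+CO and 279 TPM in Sham. Uqcrb, at 225 TPM in Cas+T, 244 TPM in Cas+CO and 188 TPM in Sham, shares near-identical sequence with 4 other genes of the annotation, so its reads may have been divided among them. For Cas+T over Cas+CO the medians were -0.09 for the core and Rieske proteins and 0.47 for the small subunits.

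Complex IV, cytochrome c oxidase, has a set of subunits found in all tissues and several isoforms of narrower use. The 9 ubiquitous subunits among the members had a median log2 ratio of -0.18 in Cas+CO over Sham, 0.32 in Cas+T over Cas+CO and 0.14 in Cas+T over Sham, and 6 of the 9 were lowest in Cas+CO. Cox7c stood at 451 TPM in Cas+T, 277 TPM in Cas+CO and 404 TPM in Sham, and Cox6a1 at 170.0, 136 and 198 TPM in the same order. Cox6c, the most abundant of all members, was the opposite, with 910.1 TPM in Cas+T, 1043 TPM in Cas+CO and 725 TPM in Sham. Cox7b differed from all of these. It stood at 334 TPM in Cas+T, 141 TPM in Cas+CO and 131 TPM in Sham, so that the Cas+T library was high and the other 2 were close to each other. The Cas+T level was above that of Cas+CO by 2.36-fold (log2 ratio 1.24) and above that of Sham by 2.54-fold (1.35), while Cas+CO and Sham differed 1.08-fold. Cox7b lies at chrX:106015700-106022450 on the plus strand, and no near-identical transcript of another gene and no overlapping gene was found. No other member was past 2-fold between Cas+T and Sham at the pseudocount of 1 TPM used here.

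The tissue isoforms of complex IV made up little of its RNA in any library. Cox8b, the form of heart and skeletal muscle that is also known from brown fat, was listed at 0 in Cas+T, at 5.44 TPM in Cas+CO and at 0 in Sham. Its TPM alone thus give no fold. It enters the 2-fold counts above through Cas+CO alone, with a ratio set by the 1 TPM added to both values. The ubiquitous Cox8a stood at 384, 366 and 415 TPM in the same order, and Cox8b was 1.47% of the pair in Cas+CO. Cox6b2, known as the testis form, was at 2.24 TPM in Cas+T, 7.0 TPM in Cas+CO and 1.89 TPM in Sham, and rose 2.77-fold in Cas+CO over Sham (log2 ratio 1.47) and fell 2.47-fold in Cas+T against Cas+CO (-1.30). It held 0.99%, 3.80% and 0.92% of the TPM it shares with Cox6b1 in the same order. Beside these values, the 5 listed brown fat markers summed to 2.13, 8.50 and 3.22 TPM, with Ucp1 at 0, 0.19 and 0 TPM. The 13 skeletal muscle markers summed to 34.1 TPM in Cas+T, 25.6 TPM in Cas+CO and 44.0 TPM in Sham, while their median level was 1.15, 1.68 and 0.73 TPM in the same order, and 2, 1 and 1 of them were at 0. The part of muscle or fat tissue in the Cox8b value was not tested. The 11 sperm markers summed to 25.2, 32 and 99.1 TPM, and 9, 8 and none of them were at 0, while nearly all of that sum in Cas+T and Cas+CO was Odf2. Cox7a1, the heart and muscle form of Cox7a2, was at 5.46, 3.73 and 5.53 TPM and held 3.21%, 2.89% and 3.15% of their pair. Cox7b2, known from testis, was listed at 0 in Cas+T and Cas+CO and at 0.28 TPM in Sham.

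The 16 members of complex V, the ATP synthase, had a median log2 ratio of 0.19 in Cas+CO over Sham, -0.02 in Cas+T over Cas+CO and 0.20 in Cas+T over Sham, and 15, 15 and 16 of the 16 lay within 1.5-fold. For complex I the counts within 1.5-fold were 33 of 36, 36 of 37 and 36 of 37 in the same order of comparisons, and for all members 67 of 77, 71 of 78 and 75 of 77. The shares of all genes were 31.6%, 46.3% and 73.4%, and those of genes with a mean of at least 50 TPM 49%, 62.4% and 83%. As deposited, the catalytic subunits Atp5a1 and Atp5b of the head were highest in Cas+CO. Their log2 ratios for Cas+CO over Sham lay above the median of abundant genes but 0.26 below that of all genes. All 16 members of complex V lay below the median of all genes there. Atp5b, the beta subunit and the most abundant of the complex, stood at 699 TPM in Cas+T, 853 TPM in Cas+CO and 601 TPM in Sham. Atp5a1, the alpha subunit, stood at 413, 506 and 356 TPM in the same order. The stalk subunits gamma, delta and epsilon (Atp5c1, Atp5d and Atp5e) had log2 ratios of 0.21, 0.17 and -0.19 for Cas+CO over Sham. The 4 members of the peripheral stalk ranged between 0.04 and 0.29. Atp5l, subunit g, was at 388 TPM in Cas+T, 303 TPM in Cas+CO and 286 TPM in Sham, but 13 other genes have near-identical transcripts, and the 3 of them that are listed summed to 90.7, 54.5 and 48.9 TPM in the same order.

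Subunit c of the proton-turning ring is made from 3 genes that give the same mature protein, and its total was much alike in the libraries. It summed to 658 TPM in Cas+T, 569 TPM in Cas+CO and 575 TPM in Sham. Its make-up differed: Atp5g1 was at 159.5 TPM in Cas+T, 96.8 TPM in Cas+CO and 163 TPM in Sham, so Cas+CO was 1.68-fold lower than Sham and Cas+T 1.64-fold higher than Cas+CO. Its share of subunit c RNA was 24.2% in Cas+T, 17.0% in Cas+CO and 28.4% in Sham. Atp5g2 took 38.7%, 45.7% and 37.8% and Atp5g3 took 37.0%, 37.2% and 33.9% in the same order. Atp5g2 has near-identical copies in the annotation and its share is uncertain for that reason.

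Some subunits and partners of the complexes fall outside the symbol rule. Of 8 such genes compared, Cox4i2 alone was at least 2-fold lower in Cas+CO over Sham and none was higher, beside 6.49% and 37.5% of all genes. Cox4i1, Cox4i2 and Cycs were past 2-fold upward in Cas+T over Cas+CO and none downward, beside 6.9% and 23.4%. None of 8 passed 2-fold in Cas+T over Sham, beside 5.18% higher and 2.76% lower. Lowest in Cas+CO were 6 of 8, beside 15.5% of all genes and 27.8% of those with a mean of at least 50 TPM. Cox4i1, the main form of a regulatory complex IV subunit and more abundant than any member in Cas+T and Sham, was at 1449 TPM in Cas+T, 711 TPM in Cas+CO and 1390 TPM in Sham. Cas+CO was 1.95-fold lower than Sham here, and Cas+T 2.04-fold higher than Cas+CO. Its isoform Cox4i2, known from lung, was at 5.83, 0.53 and 4.32 TPM in the same order and at most 0.40% of the pair. Cycs, cytochrome c, was at 170.2 TPM in Cas+T, 66.1 TPM in Cas+CO and 127 TPM in Sham, with Cas+T 2.55-fold above Cas+CO. Of the adenine nucleotide carriers that bring ADP to the ATP synthase, Slc25a5 was at 357, 202 and 340.1 TPM and Slc25a4 at 127, 87.7 and 120 TPM, both lowest in Cas+CO.

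Of the genes that build and feed the complexes, 70% of assembly factors (35 of 50), 66.7% of tricarboxylic acid cycle genes (12 of 18) and 60% of carriers and enzymes of electron entry (9 of 15) were highest in Cas+CO, against 72.0% of all genes. Of 49 assembly factors compared, 3 were at least 2-fold higher in Cas+CO over Sham and none lower, beside 37.5% and 6.49% of all genes, with a median log2 ratio of 0.45. The 3 were Dmac2, Uqcc1 and Lyrm7, and Dmac2, which assists complex I assembly, was at 17.0 TPM in Cas+T, 32.9 TPM in Cas+CO and 11.5 TPM in Sham. Of 50 assembly factors, 1 was in Cas+T over Cas+CO at least 2-fold higher and 2 were lower (median -0.28), beside 6.9% and 23.4% of all genes, and in Cas+T over Sham 1 was higher and none lower (median 0.19), beside 5.18% and 2.76%. None of the 18 tricarboxylic acid cycle genes passed 2-fold in any comparison, yet all 18 were higher in Cas+CO than in Sham (median 0.44), where 81.7% of all genes were higher. Their median was -0.11 for Cas+T over Cas+CO and 0.33 for Cas+T over Sham. Pdha1, of pyruvate dehydrogenase, was at 106 TPM in Cas+T, 167 TPM in Cas+CO and 85.1 TPM in Sham. Of 15 carriers and enzymes of electron entry, 2 were at least 2-fold higher in Cas+CO over Sham and none lower, again beside 37.5% and 6.49% of all genes: Gpd2, mitochondrial glycerol-3-phosphate dehydrogenase, at 6.23, 9.97 and 3.51 TPM, and Etfb, an electron transfer flavoprotein subunit, at 133, 262 and 111 TPM. No gene of this list passed 2-fold in the other comparisons, and its medians were 0.53 for Cas+CO over Sham, -0.20 for Cas+T over Cas+CO and 0.25 for Cas+T over Sham.

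Among the companion gene lists, the regulators of mitochondrial biogenesis had the highest median in Cas+CO over Sham. Of 19 compared, 13 were at least 2-fold higher in Cas+CO over Sham and none lower, beside 37.5% and 6.49% of all genes. Set against the median of all genes, only 1 was at least 2-fold higher and 1 lower, beside 11.1% and 13.4% of all genes. The list's median was 1.15, which lay 0.39 above the median of all genes. Ppargc1a, the coactivator PGC-1alpha, was at 3.12 TPM in Cas+T, 5.75 TPM in Cas+CO and 0.92 TPM in Sham. Twnk, the mitochondrial DNA helicase, was at 10.6, 24.6 and 7.92 TPM, and Tfam, the packaging factor of mitochondrial DNA, at 51.0, 80.1 and 37.7 TPM in the same order. In Cas+T over Cas+CO none of 19 was at least 2-fold higher and 2 were lower, Twnk and Polg2, beside 6.9% and 23.4% of all genes. The median there was -0.71. In Cas+T over Sham 1 was higher, Ppargc1a, and none lower, beside 5.18% and 2.76%, with a median of 0.43. These regulators were compared at far lower levels than the subunits: their median level in Cas+CO was 15.9 TPM, against 110.2 TPM for the members.

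**Figure D4:**
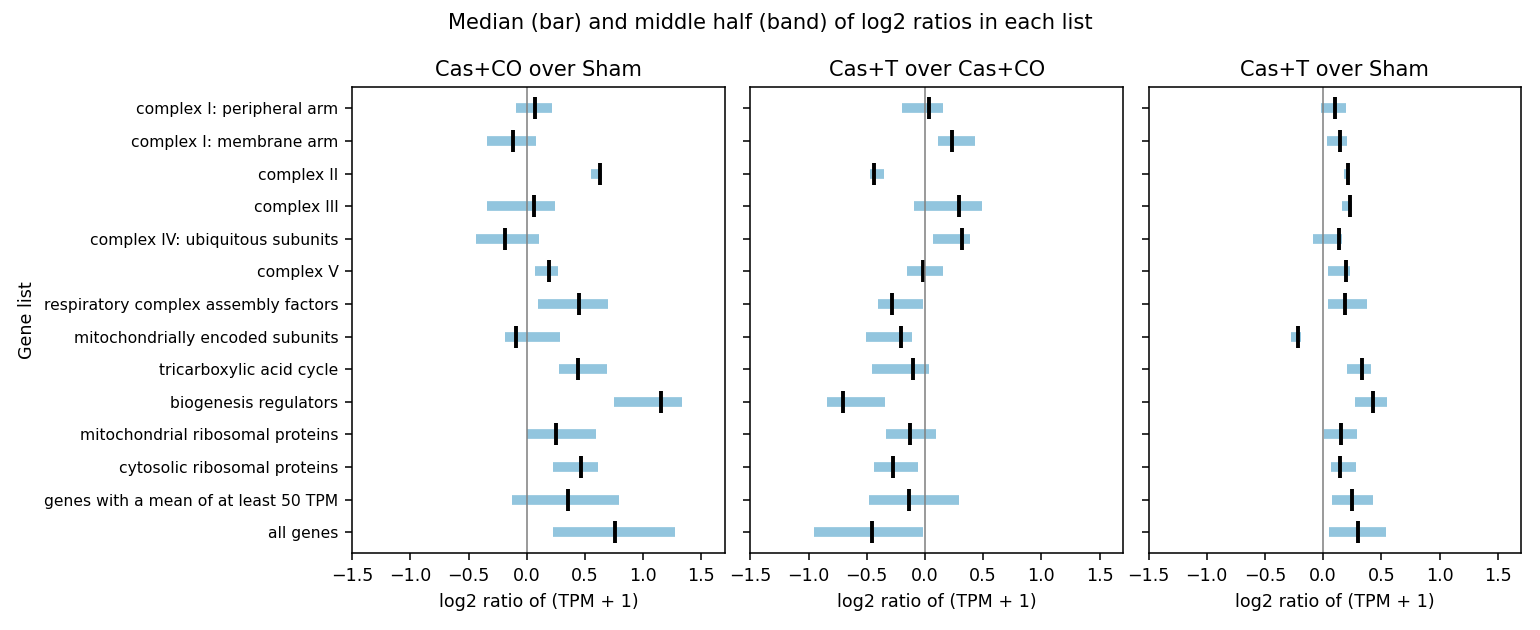
Median (black bars) and middle 50% (blue bands) of the log2 ratio of (TPM + 1) in each gene list, in the 3 comparisons of 1 library with 1 other. In Cas+CO over Sham the medians of both arms of complex I, complex III and the ubiquitous subunits of complex IV lie between -0.18 and 0.07. That of complex II lies at 0.63 and that of the biogenesis regulators at 1.15, with all genes at 0.76.

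The 13 subunits encoded by mitochondrial DNA summed to 109705 TPM in Cas+T, 124171 TPM in Cas+CO and 131250 TPM in Sham. Of these sums mt-Atp8 alone held 55721, 63169 and 67308 TPM in the same order, so they largely follow 1 gene. The median log2 ratio of the 13 subunits was -0.09 for Cas+CO over Sham. There 1 gene was at least 2-fold higher and 1 lower, beside 37.5% and 6.49% of all genes. In Cas+T over Cas+CO the median was -0.20, with none of 12 higher and 2 lower, beside 6.9% and 23.4%. For Cas+T over Sham it was -0.21, with none of 13 higher and 1 lower, beside 5.18% and 2.76%. Near-identical nuclear copies of mitochondrial genes held 7.66%, 8.0% and 9.25% of all TPM in Cas+T, Cas+CO and Sham, and how reads were divided between genes and copies is not stated. Among the subunits, mt-Co3 was listed at 0.23 TPM in Cas+T, 0.25 TPM in Cas+CO and 93.6 TPM in Sham, and mt-Co2 at 36.6, 267 and 30.5 TPM. No ratio of nuclear to mitochondrial subunits is drawn from these values.

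The members differ in length, and the ranks of their ratios ran partly with it in the comparisons that involve Cas+CO. The annotation gives the members a median coding length of 408 bases, or 136 residues. The 38 members compared with at most that length had a median log2 ratio of -0.04 in Cas+CO over Sham, and the 39 longer ones 0.17. Across the 77 members, Spearman's rho between coding length and that ratio was 0.40. It was -0.43 across 78 members for Cas+T over Cas+CO and 0.09 across 77 for Cas+T over Sham. With mRNA length in place of coding length, rho was 0.33, -0.31 and 0.14 in the same order of comparisons. Pearson's correlation with log2 mRNA length was weaker for the first 2 of these, at 0.11, -0.06 and 0.11. These points are genes of the same 2 libraries and are not independent, so the values are descriptions. Across all genes with a mean of at least 50 TPM and an annotated length, members among them, rho with coding length was 0.26 for Cas+CO over Sham (2347 genes), -0.13 for Cas+T over Cas+CO (2344 genes) and 0.39 for Cas+T over Sham (2345 genes).

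Members and other abundant genes were set side by side in 6 classes of mRNA length. For Cas+CO over Sham, under 500 bases the medians were -0.20 for 9 members and -0.12 for 60 other genes. In the class that starts at 500 bases and ends below 750 they were -0.04 for 27 members and 0.01 for 134 others. In the class that starts at 750 bases they were 0.08 for 10 members and 0.00 for 172 others, and in that from 1000 bases 0.10 for 13 members and 0.22 for 346 others. In the class that starts at 1500 bases they were 0.20 for 13 members and 0.41 for 646 others, and at 2500 bases or more 0.65 for 5 members and 0.58 for 924 others. Those 5 members, Sdha and Sdhc among them, ranged widely, from -0.75 for Atp5g1 to 0.77 for Ndufs1. Members were thus above the others in 2 of the 6 classes, and the gap ran up to 0.20, in the class from 1500 bases. For Cas+T over Cas+CO the members' medians were 0.43, 0.20, 0.15, 0.04, -0.08 and -0.42 from the shortest to the longest class, against 0.24, 0.02, 0.04, -0.09, -0.20 and -0.22 for the others, so members were above in 5 of the 6 classes. The cytosolic ribosomal protein genes, also short and abundant, had class medians between 0.34 and 0.63 in Cas+CO over Sham. With each member set against abundant genes of its own length class, the median of all members moved to -0.06 in Cas+CO over Sham, and 4 members were then at least 2-fold lower. The part of length, RNA quality or library preparation in the ratios was not tested.

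**Figure D5:**
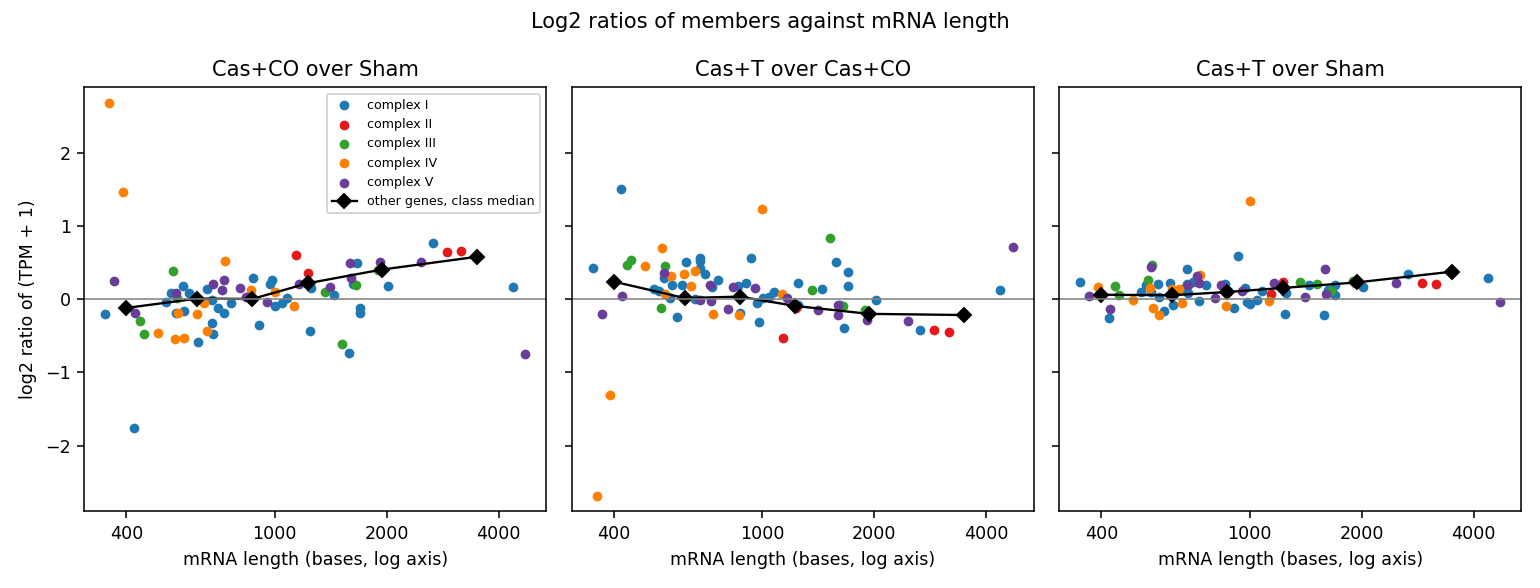
Log2 ratio of (TPM + 1) of each member, coloured by complex, against its annotated mRNA length in bases (log axis), in the 3 comparisons of 1 library with 1 other. Diamonds are medians of other genes with a mean of at least 50 TPM in 6 length classes. In Cas+CO over Sham the diamonds climb to 0.58 in the longest class, while the 5 longest members have a median of 0.65 and range from -0.75 to 0.77.

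Reads shared with other genes limit some of these values. For 17 of the 79 members the annotation holds at least 1 other gene with a transcript at least 90% identical over at least 50% of the member's length. Atp5h has 5 such genes, of which 1 is listed, at 97.5 TPM in Cas+T, 118 TPM in Cas+CO and 85.4 TPM in Sham. Several members overlap a gene on the other strand, such as Atp5j with Gabpa and Ndufs1 with Eef1b2, and the labels do not say whether counting used strand. Ndufa1, Cox7b, Cox8b, Cox6b2 and the 4 Sdh genes have neither a near-identical copy nor an overlapping gene.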

How the data were processed

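RNA of mouse epididymis was sequenced in 3 libraries, 1 per group, each deposited as a table of 23538 genes. The values were deposited by the authors on a log2 scale and read as log2(TPM + 1): turned back, each library sums to 1000000 TPM, and all values under 1000 TPM lie on steps of 0.01 TPM (tolerance 0.001). For the aligner, counting tool, genome build, strand setting and depth, the sources used here state nothing. Genes listed more than once by symbol (37) were summed, and 937 without a symbol took their GENCODE M21 name. Ratios are differences of log2(TPM + 1) for genes at 1 TPM or more in at least 1 of the 2 libraries, called at 2-fold, with no test. mRNA lengths come from the GENCODE M21 protein-coding transcript with the longest coding part, near-identical copies from BLAST 2.17.0, and promoters from RefSeq. Other steps used Python 3.11.15, pandas 2.3.3, NumPy 2.4.6 and matplotlib 3.10.9. The ratio and count steps were tested on simulated data. Members, gene lists, markers and alternatives were chosen with earlier results of these data known. Genes named are the most abundant member of each complex, the 5 largest and 5 smallest ratios of each comparison, isoform pairs, all of complex II, the core catalytic and F1 subunits, and up to 4 genes of each companion list by size of ratio. Tfam, Atp5h, Gabpa and Eef1b2 are named outside that rule, after their values were seen. Alternatives changed the pseudocount, minimum, fold limit, scaling, membership and handling of repeated symbols. Cox6a2 and the gene Cox8c, which carries no symbol in the tables, were not analysed here, and 1 gene covered by the naming rule is not reported here.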

Additional observations from a re-analysis of the deposited data

How the results depend on the processing

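No paired analysis was possible because each group has 1 library. Counts were taken as unmoved within 1.5-fold of the reported count, and medians and summed TPM within 0.1 on the log2 scale; the cause of the moves below was not tested. In Cas+CO over Sham the 2 members at least 2-fold higher became 0 at a minimum of 10 TPM or without tissue isoforms, 1 against the median of all genes, 6 at a fold limit of 1.5 and 1 at 4. The 1 lower became 15 against all genes, 3 against genes of at least 50 TPM, 3 with the 50 most abundant genes of each library left out of the total, 2 with structural subunits only (Cox4i1, Cox4i2, Cyc1 and Ndufab1 added), 4 at a limit of 1.5, 0 at 4 and 4 against abundant genes of the same length class, an alternative chosen after seeing the data. The median of 0.06 became -0.70, -0.30, -0.26 and -0.059 under all genes, abundant genes, the reduced total and the length classes. For Cas+T over Cas+CO the 2 higher became 7 against all genes, 4 with structural subunits, 5 at 1.5 and 0 at 4, and the 2 lower became 0 at 10 TPM or without isoforms, 1 against all genes and 1 at 4. The median of 0.12 became 0.58, 0.26 against abundant genes and 0.26 with the reduced total. For Cas+T over Sham the 1 higher became 2 at a pseudocount of 0.1 TPM, 2 at 1.5 and 0 at 4, and the median of 0.15 became -0.15, -0.10, -0.039 and -0.013 under all genes, abundant genes, the reduced total and the length classes. Summed TPM became 14722 in Cas+T with structural subunits, 11213 in Cas+CO with the reduced total, and 13606 with the reduced total and 13275 with structural subunits in Sham. Taking the highest row per symbol, no minimum, or a total without mitochondrial genes and their copies moved none of the 42, 24 and 42 values recomputed. Depth limits the members near 1 TPM, Cox8b, Cox6b2, Cox7a1 and Ndufa4l2, by an unknown amount.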

Other observations

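The 17 listed genes of glycolysis, which supplies pyruvate and NADH to the mitochondrion, summed to 3011 TPM in Cas+T, 2906 TPM in Cas+CO and 3005 TPM in Sham. Past 2-fold, 5 stood above and 1 below in Cas+CO over Sham (median log2 ratio 0.04), beside 37.5% and 6.49% of all genes. In Cas+T over Cas+CO 1 was higher and 2 lower (0.02), beside 6.9% and 23.4%, and in Cas+T over Sham 2 were higher and none lower (0.20), beside 5.18% and 2.76%. Of the hexokinases, which trap glucose in the cell, Hk2 was at 40.7 TPM in Cas+T, 8.0 TPM in Cas+CO and 34.4 TPM in Sham, while Hk1 was at 14.2, 34.4 and 11.7 TPM in the same order. Aldoc, an aldolase isoform, was at 22.4 TPM in Cas+T, 74.5 TPM in Cas+CO and 26.8 TPM in Sham.

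The 2 ribosomal protein lists differed in level. Of 78 mitochondrial ribosomal protein genes, 1 stood more than 2-fold above and 2 below in Cas+CO over Sham (median 0.25), beside 37.5% and 6.49% of all genes, 1 higher and none lower in Cas+T over Cas+CO (-0.13), and none higher and 1 lower in Cas+T over Sham (0.15). Mrps6 stood out with 223 TPM in Cas+T, 89.9 TPM in Cas+CO and 247 TPM in Sham, the same order of libraries as Ndufa1. Of 87 cytosolic ribosomal protein genes, 4 were higher and 1 lower in Cas+CO over Sham (median 0.47), beside the same shares of all genes, 1 higher and 2 lower in Cas+T over Cas+CO (-0.27), and none of 86 past 2-fold in Cas+T over Sham (0.15). The shares of all genes were 6.9% higher and 23.4% lower in Cas+T over Cas+CO, and 5.18% and 2.76% in Cas+T over Sham.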
